A study of Mus musculus with 8 samples.

Results

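The interferon-stimulated antiviral genes described here are 29 named mouse genes, taken from a list of names that was drawn up with earlier results of these data known. They are 29 of the 49585 gene identifiers in the deposited table, and each matched 1 identifier. Their values were read in 8 intestinal RNA libraries, 4 from mice named as Klebsiella recipients and 4 from mice named as Lactobacillus recipients, each library from a separate C57BL/6 mouse. All 8 mice share that strain, and all 8 samples are labelled intestine, snap-frozen before RNA was taken with Trizol. The form and dose of the bacteria, the time until sampling, the segment of the intestine, and the sex and age of the mice were not given in the sources used here, and no mouse without either bacterium is analysed here.

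Interferons are secreted proteins that warn neighbouring cells of infection. Type I and type III interferons bind their own receptors and activate a complex of transcription factors, STAT2 and IRF9 among them, which binds a DNA element, the interferon-stimulated response element, before the genes it switches on. The products of those genes sense viral nucleic acid, block viral RNA and protein synthesis, trap virus particles or call in immune cells. In the gut, resident bacteria are known to set a steady level of interferon signalling without infection, and the epithelium responds mainly to type III interferon.

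The response element is the DNA through which interferon is known to act on many of these genes, so stretches of promoter are shown for genes whose values are taken up in what follows. RefSeq promoters on GRCm38.p6 were at hand for 21 of the 29 genes. No entry was at hand for Dhx58, Mx1, Mx2, Oas2, Parp14, Rtp4, Usp18 and Zbp1. Each stretch below is 120 bases long and reads 5′ to 3′ on the gene's own strand. Capitals mark matches to GAAANNGAAA, the core of the element, or to its reverse complement TTTCNNTTTC, and overlapping matches run together. Isg15 lies at chr4:156200819-156200938 on the minus strand, Oas3 at chr5:120777660-120777779 on the minus strand and Ifit1 at chr19:34640750-34640869 on the plus strand. Ifit3 lies at chr19:34583338-34583457 and Ifit3b at chr19:34607734-34607853, both on the plus strand. Oas1a lies at chr5:120907526-120907645, Oas1g at chr5:120887614-120887733 and Cxcl10 at chr5:92349018-92349137, all on the minus strand.
Isg15: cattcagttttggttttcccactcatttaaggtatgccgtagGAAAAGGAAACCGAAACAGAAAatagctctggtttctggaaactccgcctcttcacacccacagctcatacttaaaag
Oas3: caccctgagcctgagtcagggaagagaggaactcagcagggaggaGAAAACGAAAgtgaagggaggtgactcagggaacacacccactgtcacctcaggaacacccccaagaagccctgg
Ifit1: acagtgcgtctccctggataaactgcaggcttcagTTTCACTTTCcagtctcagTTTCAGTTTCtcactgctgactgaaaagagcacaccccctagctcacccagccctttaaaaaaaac
Ifit3: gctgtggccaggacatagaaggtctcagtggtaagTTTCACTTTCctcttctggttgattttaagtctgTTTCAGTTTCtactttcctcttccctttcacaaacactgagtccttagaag
Ifit3b: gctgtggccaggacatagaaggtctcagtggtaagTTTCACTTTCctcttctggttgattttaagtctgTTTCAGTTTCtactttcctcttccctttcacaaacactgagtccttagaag
Oas1a: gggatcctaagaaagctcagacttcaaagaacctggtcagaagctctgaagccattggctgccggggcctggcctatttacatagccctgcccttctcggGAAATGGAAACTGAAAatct
Oas1g: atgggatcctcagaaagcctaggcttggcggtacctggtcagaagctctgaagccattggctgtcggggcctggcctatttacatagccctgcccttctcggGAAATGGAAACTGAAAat
Cxcl10: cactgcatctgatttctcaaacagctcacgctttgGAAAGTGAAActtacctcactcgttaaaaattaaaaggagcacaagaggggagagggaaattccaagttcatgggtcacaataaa

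A match was present in the 250 bases before the start of 13 of the 21 genes, or in 14 of their 24 promoters (58.3%), against 978 of all 32851 promoters of the same length (2.98%). Among promoters of other interferon-stimulated genes, 23 of 70 (32.9%) held a match. Isg15 held 3 overlapping matches, the first 78 bases before the start, and Oas1a and Oas1g held 2 each within 20 bases of the start. The stretches of Ifit3 and Ifit3b, neighbouring copies of one another, were identical at all 120 bases. Bst2, Rsad2, Stat2, Trim30a and Ifit1bl1 also held a match, while Ddx58, Ifi44, Ifih1, Ifit2, Irf7, Oasl1, Oasl2 and Xaf1 held none in that window. A match describes letters in the window and no more.

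The values are FPKM, which divide a gene's reads by its length and by the size of the library, as the authors deposited them. The library sizes that the FPKM were scaled by were between 15783925 and 21603065 reads, and the genes described here had between 6 and 2542 reads in any one library. Of the 29 genes, 21 had at least 30 reads in every library. The 6 colonocyte markers summed to between 1235 and 5616 FPKM over the 8 libraries and the 8 small intestinal markers to between 5.02 and 22.1 FPKM. Of the small intestinal markers, Apoa4 reached at most 0.0349 FPKM and Fabp1 at most 0.444 FPKM, while Fabp6 lay between 3.04 and 11.98 FPKM, Alpi reached 5.35 FPKM in Klebsiella replicate 3, and Slc10a2 was at 6.09 FPKM in Klebsiella replicate 3 and 6.00 FPKM in Lactobacillus replicate 2. Some libraries stood apart within the groups. Hoxb6, 1 of 5 positional genes examined, was at 40.2 FPKM in Klebsiella replicate 3 and 45.2 FPKM in Lactobacillus replicate 2, and between 1.16 and 3.87 FPKM elsewhere. All 5 positional genes had a log2 difference below 0, and 2 of them had an unadjusted p under 0.05 by limma. Hoxd13 was at 46.3, 3.25, 2.20 and 8.03 FPKM across Klebsiella replicates 1 to 4, against 43.9, 19.1, 27.3 and 39.2 FPKM across Lactobacillus replicates 1 to 4, a log2 difference of -1.97. Hoxb13 had a log2 difference of -0.62, and both had an adjusted p of 0.774 by limma. The part of these positional differences in the values of the antiviral genes was not tested. Ctrb1, a pancreatic protease, was at 418 FPKM in Klebsiella replicate 2 and 112 FPKM in Lactobacillus replicate 3, and at most 2.99 FPKM elsewhere. The share of bases at or above quality 30 was 90.65% in Klebsiella replicate 4 and between 94.03% and 94.57% in the other libraries.

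The 29 genes were all detected in every library, but their levels differed widely. Bst2 (tetherin, which holds budding virus at the cell surface) had the highest mean over the 8 libraries, 52.0 FPKM, ahead of Irf7 with 25.9 FPKM and Ifit1bl1 with 23.7 FPKM. At the low end stood Oas2 with 0.982 FPKM, Ifit3b with 0.715 FPKM and Mx2 with 0.693 FPKM. Of the 29 genes, 9 averaged at least 10 FPKM and 3 averaged under 1 FPKM. Comparing levels between genes depends on the length each FPKM was divided by, which was within 1 base of the mean length of the gene's annotated transcripts for 25 of the 29.

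**Figure D1:**
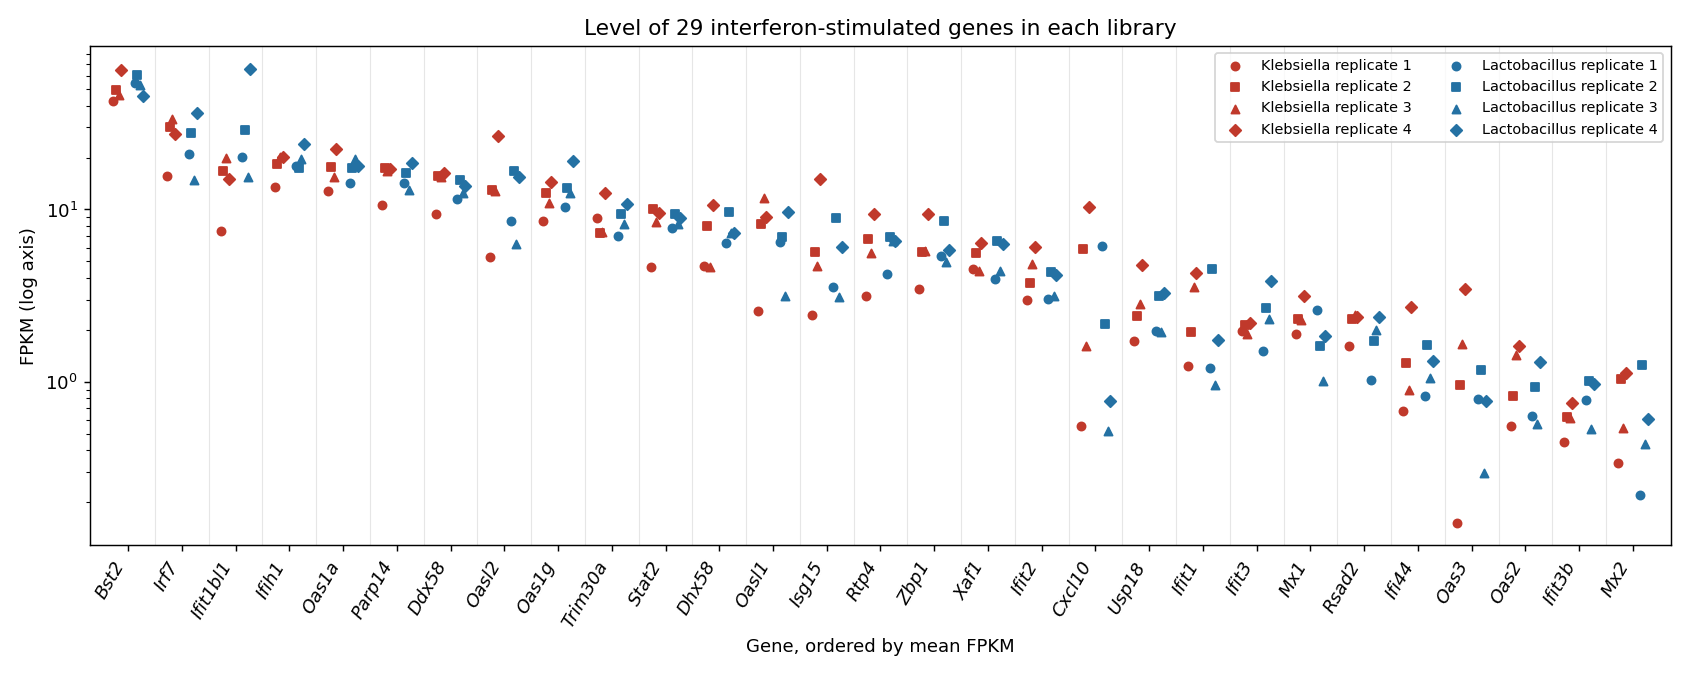
FPKM of the 29 genes in each of the 8 libraries, on a log axis, with 1 column per gene and 1 point per library, Klebsiella recipients left of Lactobacillus recipients in each column and a marker shape per replicate. Bst2 lies between 42.8 and 64.6 FPKM in all libraries, while Oas3 runs from 0.152 to 3.45 FPKM, and the groups overlap in every column.

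The first comparison asks whether the antiviral genes differed between recipients of the 2 bacteria. Limma called 0 of the 29 in either direction at a Benjamini-Hochberg adjusted p under 0.05, with 0 (0%) of all 16865 genes called. A gene not called is not thereby shown to be equal in both groups. The smallest adjusted p by limma was 0.774 among the 29 genes and 0.462 over all genes. At an unadjusted p under 0.05, limma gave 0 of the 29 genes and 1024 of all genes (6.07%), and a count model on reads recovered from the FPKM (voom) called 0 genes and gave 0 of the 29 and 1046 of all genes at that unadjusted level. The lowest and highest libraries of the groups overlapped for all 29 genes, while 2.99% of all genes had groups that did not overlap. The log2 difference, Klebsiella minus Lactobacillus on the log2(FPKM + 0.5) scale, was above 0 for 16 genes and below 0 for 13, with 46.4% of all genes above 0. Its median was 0.06 over the 29 genes and -0.02 over all genes. That median turned on single mice, being 0.25 without Klebsiella replicate 1 and -0.15 without Klebsiella replicate 4. Limma also called 0 genes without the pair of libraries high in Hoxb6, where the median was 0.09, and without the pair high in Ctrb1, where it was -0.05. In bulk tissue, fewer cells of a type and less RNA per cell cannot be told apart. Summed adipocyte markers (5 genes) moved with the groups, at 1.83, 16.8, 9.63 and 19.2 FPKM across Klebsiella replicates 1 to 4, against 38.4, 24.4, 55.9 and 233 FPKM across Lactobacillus replicates 1 to 4, with Lep listed at 0 in Klebsiella replicates 1 to 3 and Plin1 in Klebsiella replicate 1. Their part in the values of the antiviral genes was not tested.

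What these libraries can and cannot show differs between the genes. For 22 of the 29, the 95% interval of the difference lay within a 2-fold change either way. It reached 2-fold for Ifit1, Ifit1bl1, Isg15, Oas3, Oasl1, Oasl2 and Cxcl10. The SE of the difference ran from 0.14 (Bst2) to 0.81 (Cxcl10) on the log2 scale. The spread between mice of a group was wide: the residual SD had a median of 0.41 over the 29 genes and 0.24 over all genes, and it was 0.25 over the 13422 genes within the same range of mean level. Of the 29 genes, 26 had a residual SD above the median of all genes.

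**Figure D2:**
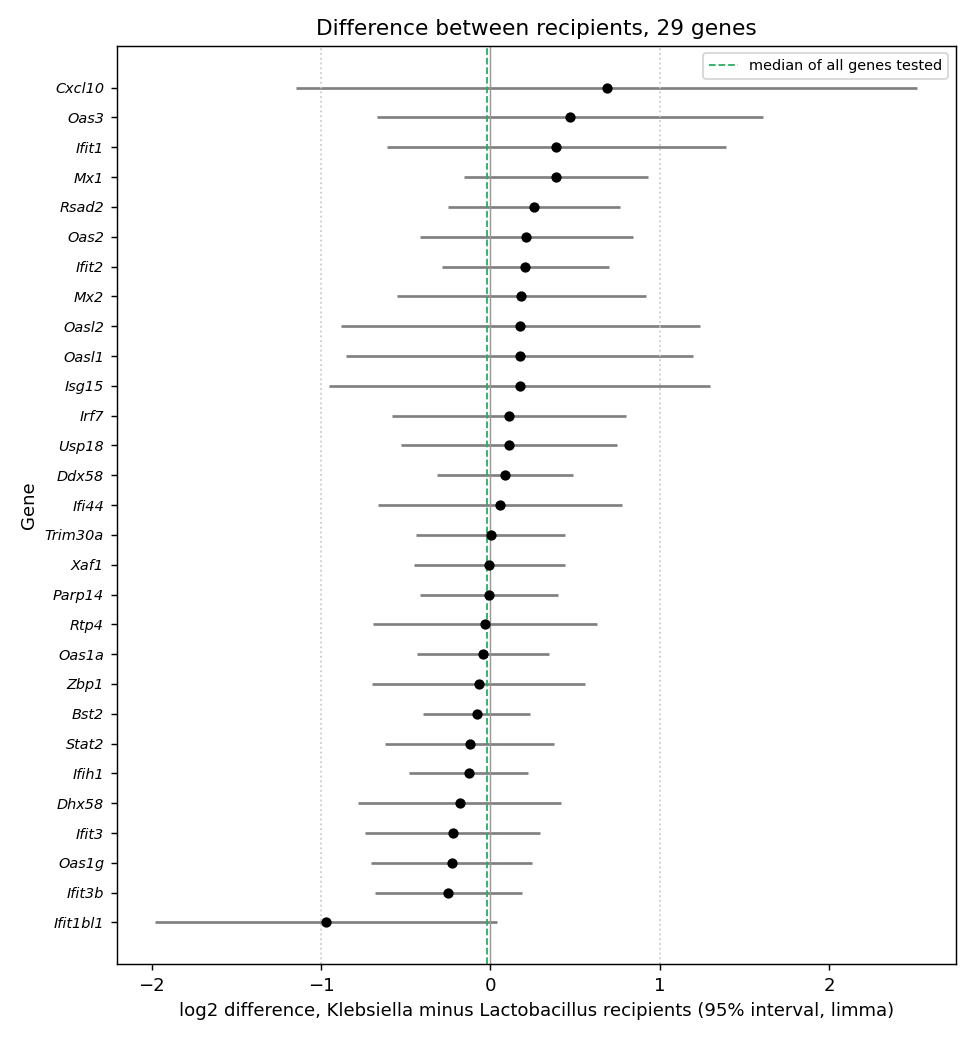
Difference in log2(FPKM + 0.5), Klebsiella minus Lactobacillus recipients, for each of the 29 genes (point) with its 95% interval from limma (line, n = 4 mice in each group); the dashed line is the median of all genes tested and the dotted lines mark a 2-fold change. The points run from -0.97 for Ifit1bl1 to 0.69 for Cxcl10, and every interval includes 0.

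The sensors come first in the pathway. Ddx58 encodes RIG-I, which detects viral RNA with a free 5′ triphosphate, and it was at 9.45, 15.6, 15.5 and 16.3 FPKM across Klebsiella replicates 1 to 4, against 11.5, 14.8, 12.5 and 13.8 FPKM across Lactobacillus replicates 1 to 4. Klebsiella replicate 1 was the lowest of the 8, and the other Klebsiella libraries were close together and above all Lactobacillus libraries. The means were 14.2 ± 3.19 FPKM in Klebsiella recipients and 13.1 ± 1.45 FPKM in Lactobacillus recipients (SD, n = 4 each). Ifih1 encodes MDA5, which detects long double-stranded RNA, and it averaged 18.1 ± 3.13 FPKM in Klebsiella recipients and 19.7 ± 3.03 FPKM in Lactobacillus recipients (SD, n = 4 each). Dhx58 encodes LGP2, a relative of both that tunes their signalling, and it lay between 4.62 and 10.6 FPKM in Klebsiella recipients and between 6.36 and 9.68 FPKM in Lactobacillus recipients. Zbp1, a sensor of left-handed nucleic acid that can start necroptosis, was at 3.44, 5.65, 5.75 and 9.40 FPKM across Klebsiella replicates 1 to 4, against 5.36, 8.52, 4.95 and 5.79 FPKM across Lactobacillus replicates 1 to 4. Both the lowest and the highest Zbp1 value thus came from Klebsiella recipients.

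The transcription factors of the set amplify and carry the response. Irf7, the factor that drives the late wave of interferon alpha genes, was at 15.7, 30.3, 33.6 and 27.3 FPKM across Klebsiella replicates 1 to 4, against 21.0, 27.9, 14.8 and 36.5 FPKM across Lactobacillus replicates 1 to 4. The lowest library of each group was near the other's, and the remaining libraries lay between 27.3 and 33.6 FPKM in Klebsiella recipients and between 21.0 and 36.5 FPKM in Lactobacillus recipients. Irf7 means were 26.7 ± 7.76 FPKM in Klebsiella recipients and 25.1 ± 9.31 FPKM in Lactobacillus recipients (SD, n = 4 each). Stat2, a subunit of the complex that binds the response element, was at 4.64, 10.1, 8.47 and 9.49 FPKM across Klebsiella replicates 1 to 4, against 7.81, 9.46, 8.20 and 8.94 FPKM across Lactobacillus replicates 1 to 4. Stat2 was even across 7 libraries, with Klebsiella replicate 1 below them.

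The IFIT proteins bind foreign RNA and block its translation. Ifit1, which recognises RNA whose cap lacks methyl marks, was at 1.24, 1.94, 3.53 and 4.27 FPKM across Klebsiella replicates 1 to 4, against 1.20, 4.49, 0.959 and 1.74 FPKM across Lactobacillus replicates 1 to 4. The single highest value came from a Lactobacillus recipient. The log2 difference of Ifit1 was 0.39 with an SE of 0.44 (limma, adjusted p 0.855). It was 0.17 without Klebsiella replicate 4 or Lactobacillus replicate 3, 0.65 without Klebsiella replicate 1, 0.76 without Lactobacillus replicate 2 and 0.07 with array weights. Ifit2, which binds RNA rich in A and U, lay between 3.00 and 6.07 FPKM in Klebsiella recipients and between 3.04 and 4.36 FPKM in Lactobacillus recipients. Ifit3, a partner that stabilises IFIT1 in human cells, lay between 1.90 and 2.18 FPKM in Klebsiella recipients and between 1.503 and 3.82 FPKM in Lactobacillus recipients. Its copy Ifit3b lay between 0.443 and 0.749 FPKM in Klebsiella recipients and between 0.532 and 1.01 FPKM in Lactobacillus recipients. The split between this pair is uncertain, because 31.65% of the 100-base windows of Ifit3 transcripts recur in Ifit3b.

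Ifit1bl1, a relative of Ifit1 in the same cluster, had the difference furthest from 0 of the 29 genes, without passing the test. It was at 7.503, 16.7, 19.9 and 15.01 FPKM across Klebsiella replicates 1 to 4, against 20.3, 28.8, 15.4 and 65.8 FPKM across Lactobacillus replicates 1 to 4. Lactobacillus replicate 4 was far above every other library, and Lactobacillus replicate 3 lay among the Klebsiella values. The means were 14.8 ± 5.24 FPKM in Klebsiella recipients and 32.6 ± 22.8 FPKM in Lactobacillus recipients (SD, n = 4 each). Its log2 difference of -0.97, with a 95% interval from -1.98 to 0.04, had the smallest unadjusted p of the set, 0.0572, and an adjusted p of 0.774 by limma. The unadjusted p was 0.0419 with the replicate number as a block, 0.046 without Klebsiella replicate 3, 0.0222 without Lactobacillus replicate 3 and 0.0309 without the pair high in Ctrb1. The adjusted p by limma in those 4 settings lay between 0.459 and 0.985. Of the 20 alternatives, no other gave Ifit1bl1 an unadjusted p under 0.05 by limma or voom. The difference was -0.56 without Lactobacillus replicate 4, the smallest with 1 library left out, and -1.25 without Lactobacillus replicate 3, the largest. Car4, a carbonic anhydrase of surface colonocytes picked out after its values were seen, was at 203, 631, 451 and 460 FPKM across Klebsiella replicates 1 to 4, against 643, 451, 404 and 1517 FPKM across Lactobacillus replicates 1 to 4. Car4 and Ifit1bl1 shared their lowest library, Klebsiella replicate 1, and their highest, Lactobacillus replicate 4. The other colonocyte markers were mixed: Slc26a3 and Ceacam20 had those same extremes, Aqp8 was lowest in Lactobacillus replicate 3, and Car1 and Guca2a were both lowest in Klebsiella replicate 4. Car1 was highest in Lactobacillus replicate 2 and Guca2a in Klebsiella replicate 3. The summed level of all 6 colonocyte markers lay between 1235 and 5616 FPKM in Klebsiella recipients and between 1765 and 5024 FPKM in Lactobacillus recipients, and its part in the Ifit1bl1 values was not tested.

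The OAS proteins are activated by double-stranded RNA and make the messenger that switches on RNase L, which cuts RNA. Oas1a averaged 17.1 ± 4.07 FPKM in Klebsiella recipients and 17.3 ± 2.23 FPKM in Lactobacillus recipients (SD, n = 4 each). Oas1g lay between 8.57 and 14.5 FPKM in Klebsiella recipients and between 10.3 and 19.1 FPKM in Lactobacillus recipients. Oas1a and Oas1g share sequence in 40.15% of the windows of Oas1a, so their separate levels are uncertain. Oas2 lay between 0.551 and 1.61 FPKM in Klebsiella recipients and between 0.571 and 1.30 FPKM in Lactobacillus recipients.

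Oas3, the longest of the OAS enzymes, had the largest FPKM ratio between highest and lowest library of all 29 genes. On the log2(FPKM + 0.5) scale Cxcl10 varied more, with a residual SD of 1.38 against 0.83 for Oas3. Oas3 was at 0.152, 0.955, 1.66 and 3.45 FPKM across Klebsiella replicates 1 to 4, against 0.797, 1.17, 0.295 and 0.773 FPKM across Lactobacillus replicates 1 to 4. These rest on 6, 46, 68 and 150 reads in the Klebsiella libraries and on 32, 58, 16 and 34 reads in the Lactobacillus libraries. The highest and the lowest library were both Klebsiella recipients, 22.7-fold apart, and the Lactobacillus libraries all lay between them. The log2 difference was 0.47 with an SE of 0.50 (limma, adjusted p 0.847). Single libraries set its size: it was 0.06 without Klebsiella replicate 4 and 0.93 without Klebsiella replicate 1, where limma gave an unadjusted p of 0.0424 and an adjusted p of 0.913.

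The OAS-like genes are close relatives of the OAS family, and Oasl1 is known in the mouse to hold back translation of Irf7. Oasl1 was at 2.56, 8.29, 11.6 and 9.08 FPKM across Klebsiella replicates 1 to 4, against 6.47, 6.90, 3.16 and 9.70 FPKM across Lactobacillus replicates 1 to 4. Oasl2 was at 5.30, 12.9, 12.7 and 26.9 FPKM across Klebsiella replicates 1 to 4, against 8.56, 16.8, 6.34 and 15.5 FPKM across Lactobacillus replicates 1 to 4. Both genes were lowest in Klebsiella replicate 1 and next lowest in Lactobacillus replicate 3. Oasl2 averaged 14.5 ± 8.999 FPKM in Klebsiella recipients and 11.8 ± 5.15 FPKM in Lactobacillus recipients (SD, n = 4 each).

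The MX proteins are GTPases that trap viral nucleoprotein, and Mx1 is known to be truncated in most inbred strains, C57BL/6 among them. Mx1 was at 1.90, 2.32, 2.29 and 3.16 FPKM across Klebsiella replicates 1 to 4, against 2.61, 1.62, 1.01 and 1.85 FPKM across Lactobacillus replicates 1 to 4. Every Klebsiella library was above 3 of the 4 Lactobacillus libraries, and only Lactobacillus replicate 1 reached into their range. The means were 2.42 ± 0.528 FPKM in Klebsiella recipients and 1.77 ± 0.660 FPKM in Lactobacillus recipients (SD, n = 4 each). The log2 difference of Mx1 was 0.39 with an SE of 0.24 (limma, adjusted p 0.774). With 1 library left out it ran from 0.21 without Lactobacillus replicate 3 and 0.28 without Klebsiella replicate 4 to 0.56 without Lactobacillus replicate 1, where limma gave an unadjusted p of 0.0392 and an adjusted p of 0.411. Mx2 was low, between 0.335 and 1.12 FPKM in Klebsiella recipients and between 0.220 and 1.25 FPKM in Lactobacillus recipients.

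Isg15 encodes a ubiquitin-like protein that is attached to other proteins, and Usp18 removes it and also damps the type I receptor. Isg15 was at 2.43, 5.65, 4.70 and 15.02 FPKM across Klebsiella replicates 1 to 4, against 3.55, 8.89, 3.12 and 6.03 FPKM across Lactobacillus replicates 1 to 4. As with Oas3, the extremes were both Klebsiella recipients. The means were 6.95 ± 5.54 FPKM in Klebsiella recipients and 5.40 ± 2.66 FPKM in Lactobacillus recipients (SD, n = 4 each), and the 95% interval of the log2 difference, from -0.95 to 1.30, covers a 2-fold change upward. Usp18 was at 1.72, 2.41, 2.84 and 4.75 FPKM across Klebsiella replicates 1 to 4, against 1.98, 3.14, 1.94 and 3.29 FPKM across Lactobacillus replicates 1 to 4. Usp18 had its lowest and highest libraries in Klebsiella replicates 1 and 4, as Isg15 did.

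Among the remaining effectors, Bst2 was the most even gene of the set. It was at 42.8, 49.1, 46.3 and 64.6 FPKM across Klebsiella replicates 1 to 4, against 54.1, 60.5, 53.1 and 45.6 FPKM across Lactobacillus replicates 1 to 4, and its highest library was 1.51-fold its lowest. The log2 difference of -0.08 had a 95% interval from -0.40 to 0.23. Rsad2, which encodes viperin, an enzyme that makes a chain-terminating nucleotide, lay between 1.61 and 2.45 FPKM in Klebsiella recipients and between 1.027 and 2.38 FPKM in Lactobacillus recipients. Parp14, an ADP-ribosyltransferase, lay between 10.7 and 17.5 FPKM in Klebsiella recipients and between 12.9 and 18.6 FPKM in Lactobacillus recipients. Trim30a, a TRIM protein known in the mouse to restrain Toll-like receptor signalling, lay between 7.30 and 12.4 FPKM in Klebsiella recipients and between 6.97 and 10.8 FPKM in Lactobacillus recipients. These 4 genes spanned less than most of the set.

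Xaf1, known as an antagonist of the apoptosis inhibitor XIAP, lay between 4.39 and 6.42 FPKM in Klebsiella recipients and between 3.97 and 6.58 FPKM in Lactobacillus recipients. Rtp4, a receptor transport protein that binds viral RNA replication complexes, lay between 3.17 and 9.44 FPKM in Klebsiella recipients and between 4.24 and 6.95 FPKM in Lactobacillus recipients. Ifi44 lay between 0.673 and 2.71 FPKM in Klebsiella recipients and between 0.821 and 1.64 FPKM in Lactobacillus recipients. For Xaf1 the ranges nearly coincide, while the Klebsiella range of Rtp4 and Ifi44 extends past the Lactobacillus range at both ends.

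Cxcl10, which draws CXCR3-bearing T and NK cells, is the 1 chemokine of the set. It was at 0.555, 5.89, 1.61 and 10.3 FPKM across Klebsiella replicates 1 to 4, against 6.12, 2.17, 0.516 and 0.772 FPKM across Lactobacillus replicates 1 to 4. High and low libraries occurred in both groups, and the highest was 20.01-fold the lowest. The log2 difference was 0.69 with an SE of 0.81 (limma, adjusted p 0.860), and its 95% interval from -1.15 to 2.52 leaves the size undetermined at this number of mice. It was 0.15 without Klebsiella replicate 4, 1.27 without Klebsiella replicate 1, 1.22 without Lactobacillus replicate 1 and 0.03 without the pair high in Ctrb1. Cxcl9, a sister chemokine induced by interferon gamma and picked out after its values were seen, was at 0.428, 2.65, 1.77 and 5.51 FPKM across Klebsiella replicates 1 to 4, against 3.18, 2.39, 0.284 and 0.385 FPKM across Lactobacillus replicates 1 to 4. In both chemokines, Klebsiella replicate 4 was the highest library and Klebsiella replicate 1 was among the lowest 3.

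Single mice differed more than the groups did. The SD between replicates of a group of the median over the 29 genes was 0.33, on the log2 scale, against a median difference of 0.06 between the groups. For each gene, the deviation of a library was taken as its log2(FPKM + 0.5) minus the gene's median over the 8 libraries. In Klebsiella replicate 1, 1 of the 29 genes was above its median, against 46.4% of all genes in that library. In Klebsiella replicate 4, 27 of the 29 were above, against 43.8% of all genes. Klebsiella replicates 2 and 3 had 18 and 14 genes above. Among Lactobacillus recipients, replicates 1 and 3 had 5 and 7 genes above, and replicates 2 and 4 had 23 and 21. The median deviation over the 29 genes was -0.51, 0.06, -0.01 and 0.50 in Klebsiella replicates 1 to 4, and -0.28, 0.17, -0.20 and 0.13 in Lactobacillus replicates 1 to 4. Low and high libraries thus occurred in both groups, and over all genes the same medians lay between -0.03 and 0.02.

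**Figure D3:**
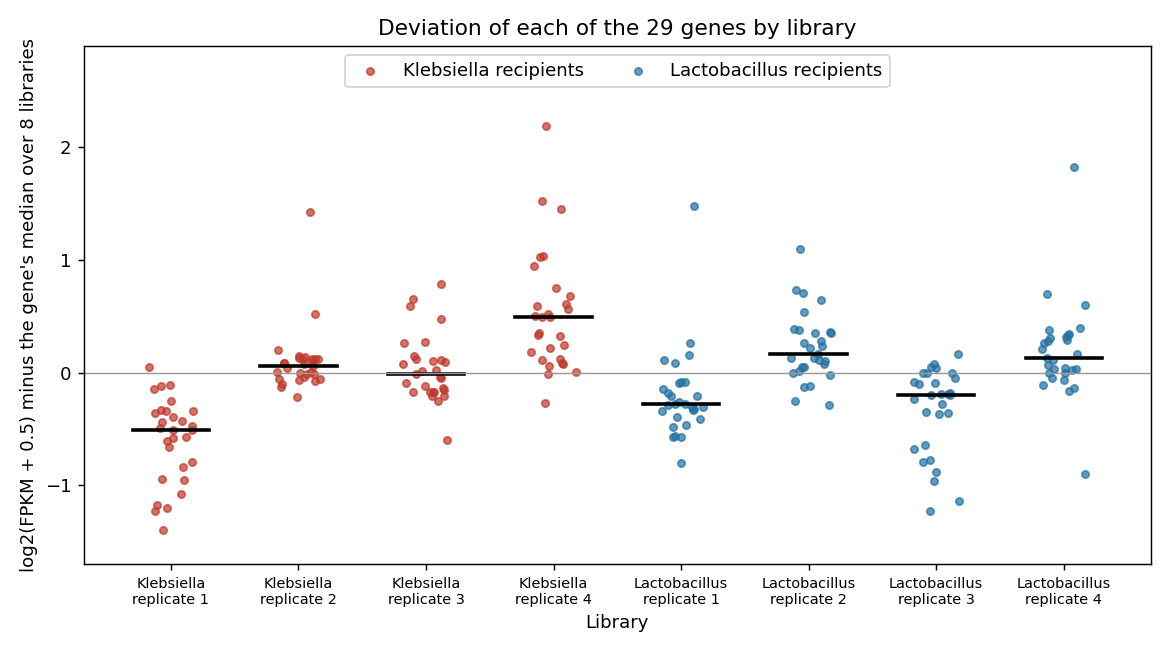
Deviation of each of the 29 genes from its own median over the 8 libraries, on the log2(FPKM + 0.5) scale, by library; each point is a gene and the black bar is the median over the 29 genes. The bars lie at -0.51 in Klebsiella replicate 1 and 0.50 in Klebsiella replicate 4, with the Lactobacillus bars between -0.28 and 0.17.

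Klebsiella replicate 4 was the highest of the 8 libraries for 16 of the 29 genes (13.5% of all genes), and Klebsiella replicate 1 was the lowest for 19 (15.8% of all genes). The FPKM in Klebsiella replicate 4 was above that in Klebsiella replicate 1 for all 29 genes, from 1.11-fold for Ifit3 to 22.7-fold for Oas3, with a median of 2.02-fold. It was at least 2-fold for 16 of the 29, against 5.24% of all genes, whose median ratio was 0.992. After Oas3 came Cxcl10 at 18.6-fold, Isg15 at 6.18-fold, Oasl2 at 5.07-fold and Ifi44 at 4.03-fold. These are 2 mice of 1 group, picked after the values were seen, so the ratios are descriptions with no test. Over all 8 libraries, the highest was at least 2-fold the lowest for 22 of the 29 genes, against 38.2% of the 16379 genes above 0 in every library.

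Other measures moved with Klebsiella replicates 1 and 4 as well. In Klebsiella replicate 1, all 5 endothelial markers were at their highest of the 8 libraries, with a sum of 125 FPKM, and all 6 colonocyte markers were below their medians. In Klebsiella replicate 4, all 5 leukocyte markers were above their medians and all 5 smooth muscle markers were at their lowest. The neutrophil genes S100a8 and S100a9 were at 8.32 and 9.16 FPKM in Klebsiella replicate 4 and at most 1.85 and 1.60 FPKM elsewhere, and the other markers Cxcr2, Retnlg and Mmp8 were also highest in Klebsiella replicate 4. The 6 neutrophil markers summed to between 38.7 and 88.1 FPKM in Klebsiella recipients and between 49.1 and 179 FPKM in Lactobacillus recipients, a sum carried by Ly6g, which was at 178 FPKM in Lactobacillus replicate 4 and at most 72.8 FPKM elsewhere. S100a8 was listed at 0 in Lactobacillus replicate 4 and S100a9 in Lactobacillus replicate 3. The summed plasma cell markers (5 genes) of Klebsiella replicate 4 were at 1188 FPKM, with 419 to 498 FPKM in the other Klebsiella libraries and 449 to 837 FPKM in Lactobacillus libraries. Its summed smooth muscle markers (5 genes) were at 696 FPKM, with 1767 to 2442 FPKM in the other Klebsiella libraries and 1007 to 1650 FPKM in Lactobacillus libraries. Its share of bases at quality 30 was the lowest, as given above. Leukocyte markers (5 genes) summed to 182, 189, 141 and 238 FPKM across Klebsiella replicates 1 to 4, against 192, 287, 131 and 226 FPKM across Lactobacillus replicates 1 to 4. Macrophage markers (9 genes) summed to between 164 and 207 FPKM in Klebsiella recipients and between 174 and 288 FPKM in Lactobacillus recipients, so Klebsiella replicates 1 and 4 were alike in them. The markers of plasmacytoid dendritic cells, the cells known to make most interferon alpha, summed to 76.5, 94.8, 69.9 and 64.6 FPKM across Klebsiella replicates 1 to 4, against 70.04, 72.3, 65.5 and 67.6 FPKM across Lactobacillus replicates 1 to 4. Tcf4, at 43.5 to 53.1 FPKM over the 8 libraries, made most of that sum, and Pacsin1 was at 32.9 FPKM in Klebsiella replicate 2 and at most 12.3 FPKM elsewhere. The defining gene Siglech was at 0.945, 0.421, 0.457 and 0.824 FPKM across Klebsiella replicates 1 to 4, against 0.9702, 1.13, 0.978 and 0.709 FPKM across Lactobacillus replicates 1 to 4, so it was lowest in the library with the highest sum. The part of these cell types and of base quality in the levels of the antiviral genes was not tested.

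The rest of the interferon pathway showed no difference between recipients that passed the test. Limma called 0 genes in either direction in each list: 0 of 6 receptor genes, 0 of 12 signalling genes, 0 of 13 nucleic acid sensing genes, 0 of 58 other interferon-stimulated genes and 0 of 27 genes of the interferon gamma and class I list. At an unadjusted p under 0.05 by limma, 1 receptor gene and 1 other interferon-stimulated gene were counted. They were Ifngr2, a chain of the interferon gamma receptor, with a log2 difference of -0.29, and Slfn5, a Schlafen family gene, with 0.35. The log2 difference was above 0 for 1 of 6, 6 of 12, 6 of 13, 27 of 58 and 13 of 27 genes in the order given, with 46.4% of all genes above 0. Socs3, which damps cytokine signalling, had the smallest unadjusted p of the signalling list at a log2 difference of 0.54. Unc93b1 had that of the nucleic acid sensing list at -0.23, and Gbp5, a guanylate-binding protein, that of the interferon gamma list at 0.29.

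The interferon genes themselves were low or listed at 0, and 0 of 21 ligand genes reached the level needed for the test. Ifnk, the interferon kappa gene, was at 0.236, 0, 0.152 and 0.286 FPKM across Klebsiella replicates 1 to 4, against 0.155, 0.126, 0.173 and 0.779 FPKM across Lactobacillus replicates 1 to 4, from at most 11 reads. Ifnb1, the interferon beta gene, was listed at 0 in all 4 Klebsiella libraries and in Lactobacillus replicates 1 and 2, and at 0.0617 and 0.152 FPKM in Lactobacillus replicates 3 and 4, from at most 2 reads. Ifng, the interferon gamma gene, reached at most 0.155 FPKM, from at most 3 reads. No test was made of these genes.

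The other interferon lists were compared library by library with the 29 antiviral genes. The 58 other interferon-stimulated genes had 9, 37, 26 and 44 genes above their medians in Klebsiella replicates 1 to 4, against 15, 44, 16 and 41 in Lactobacillus replicates 1 to 4. Klebsiella replicate 1 and Lactobacillus replicates 1 and 3 were thus the low libraries, as in the antiviral genes. The 27 genes of the interferon gamma and class I list had 3, 21, 11 and 24 above in Klebsiella replicates 1 to 4, against 24, 18, 0 and 7 in Lactobacillus replicates 1 to 4. Lactobacillus replicate 1 was thus high in that list with 24 of 27 and low in the antiviral genes with 5 of 29, and Lactobacillus replicate 4 was low with 7 of 27 and high with 21 of 29. Of the 5 antiviral genes above their medians in Lactobacillus replicate 1, Cxcl10, Mx1 and Bst2 were below them in Lactobacillus replicate 4. Ifit1bl1 and Ifit3b were above them in both. In Lactobacillus replicates 1 and 4, Cxcl10 was at 6.12 and 0.772 FPKM, Mx1 at 2.61 and 1.85 FPKM and Bst2 at 54.1 and 45.6 FPKM. Whether the lists differ in this was not tested.

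**Figure D4:**
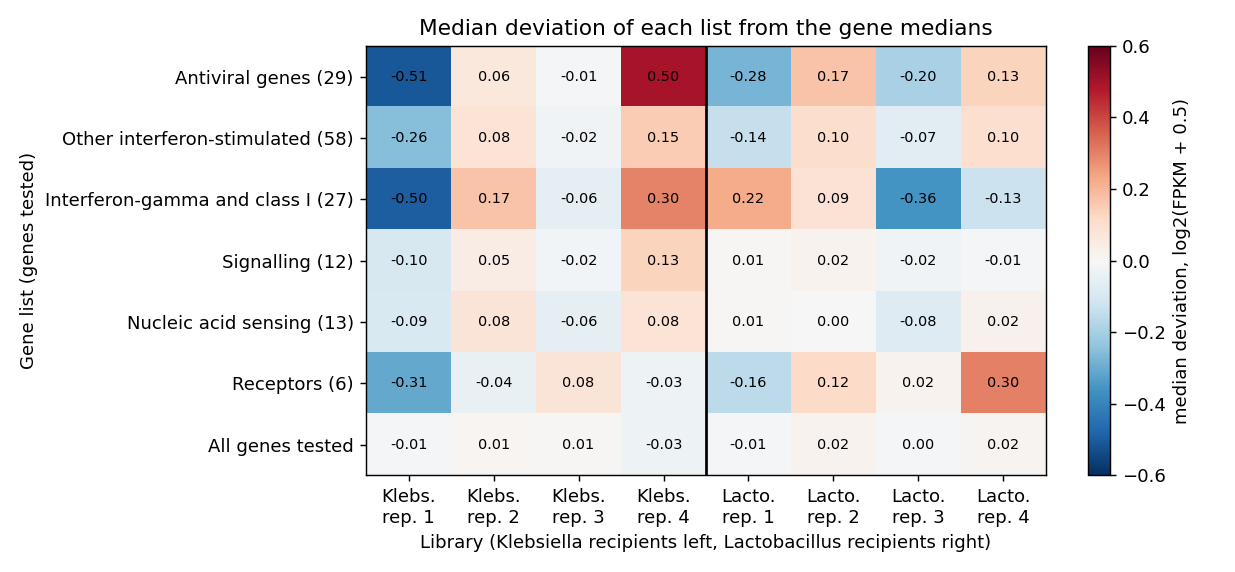
Median deviation from the gene medians, on the log2(FPKM + 0.5) scale, of each interferon list and of all genes tested in each library, with Klebsiella recipients left and Lactobacillus recipients right. Lactobacillus replicate 1 is at -0.28 for the antiviral genes and 0.22 for the interferon gamma and class I list.

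For 9 of the 29 genes, another annotated gene overlaps: Oas2, Oasl1, Usp18, Irf7, Dhx58, Cxcl10, Rtp4, Trim30a and Parp14. The neighbour lies on the same strand for Parp14, and at least 1 neighbour lies on the opposite strand for the other genes named. The strand setting of the authors' counting was not given in the sources used here, and how many reads the shared bases hold was not measured, so values of these 9 genes may include reads of a neighbour or miss reads counted for neither.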

How the data were processed

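Per the labels, each of the 8 libraries came from 1 mouse, 4 in each group. The p-values weigh the difference between the groups against the spread between these mice. The submitters' processing notes name STAR 2.5.1b, HTSeq 0.6.0, DESeq2 1.10.1 and CASAVA, giving neither their roles nor their order, and a build or annotation was not given in the sources used here. What the authors deposited were FPKM values, a count of reads passing filter per library (40455910 to 55447220) and the percent of bases at quality 30. They also gave the FPKM of 15 chosen genes out of the 49585 identifiers, with 0 of the antiviral genes among them. Each FPKM resolved to a whole number of reads (tolerance 1e-06) for all 26963 genes above 0 in at least 2 libraries, of which 123 needed a common factor resolved by gene length. Symbols came from GENCODE M21 for 49326 identifiers, and 259 had none.

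The 16865 genes whose FPKM averaged 0.5 or more over all libraries, the 29 antiviral genes among them, were analysed as log2(FPKM + 0.5), which understates changes of low genes. The comparison of Klebsiella with Lactobacillus recipients used limma 3.58.1 (R 4.3.3; two-sided, with a mean-variance trend and Benjamini-Hochberg adjusted over all tested genes, threshold 0.05), after a test on simulated data. Tables and figures were made with Python 3.11.15, numpy 2.4.6, pandas 2.3.3, Biopython 1.88 and matplotlib 3.10.9. Alternatives were other pseudocounts, filters, scalings and weights, a replicate block, voom on recovered reads, and leaving out each library and the pairs high in Hoxb6 or Ctrb1. All 29 genes are named with values, plus up to 3 genes of smallest unadjusted p in each interferon list. The genes and lists were chosen with earlier results of these data known.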

Additional observations from a re-analysis of the deposited data

Results flagged for a closer look

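In 4 of 58 groups of 4 libraries (29 genes in each recipient group), 1 library stood far from the other 3, its gap to the nearest, as a share of the group's whole range, being above Dixon's 95% critical value; chance flags about 1 group in 20. Klebsiella replicate 1 was low for Ddx58 at 9.45 FPKM, with 15.5 to 16.3 FPKM in the other Klebsiella libraries. The same library was low for Parp14 at 10.7 FPKM, with 16.8 to 17.5 FPKM in the others, and for Rsad2 at 1.61 FPKM, with 2.33 to 2.45 FPKM in the others. Lactobacillus replicate 1 was low for Rtp4 at 4.24 FPKM, with 6.54 to 6.95 FPKM in the other Lactobacillus libraries. The gaps were 0.901, 0.917, 0.868 and 0.873 of the range on that log2 scale for Ddx58, Parp14, Rsad2 and Rtp4.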

How the results depend on the processing

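Limma or voom called 0 of the 29 genes and 0 genes overall under each of 20 alternatives, and the smallest adjusted p of the 29 over them was 0.411. Of 577 gene values under alternatives, 52 had the opposite sign, 33 of them with 1 library left out, and 12 genes kept their sign throughout; the causes were not tested. With all FPKM scaled to a constant total, Xaf1 was at 0.02 and Parp14 at 0.0184, and with median-of-ratios scaling they were at 0.0187 and 0.0164. With array weights, Ifi44 was at -0.0184, Trim30a at -0.0766 and Parp14 at 0.0409, and with voom Trim30a was at -0.004. Without the pair high in Hoxb6, Oas1a was at 2e-04, Oasl1 at -0.0047, Dhx58 at 0.088, Zbp1 at 0.0846, Bst2 at 0.0181, Xaf1 at 0.17 and Rtp4 at 0.0537. Without the pair high in Ctrb1, Isg15 was at -0.0238, Oasl1 at -0.19, Oasl2 at -0.0872 and Irf7 at -0.18. Leaving out 1 library moved Isg15 between -0.27 and 0.53, Oasl1 between -0.11 and 0.60, Oasl2 between -0.18 and 0.56, Irf7 between -0.11 and 0.34, Mx2 between -0.005 and 0.42, Usp18 between -0.12 and 0.30, Ifi44 between -0.23 and 0.25, Ifih1 between -0.19 and 0.0008, Stat2 between -0.23 and 0.11, Oas1a between -0.18 and 0.0834, Zbp1 between -0.29 and 0.15, Rtp4 between -0.25 and 0.23, Xaf1 between -0.12 and 0.10, Trim30a between -0.15 and 0.10 and Parp14 between -0.0899 and 0.16. The median of the 29 genes was 0.25 without Klebsiella replicate 1, with 22 above 0, and -0.15 without Klebsiella replicate 4, with 11 above 0. Without Lactobacillus replicate 1 it was -0.04, without Lactobacillus replicate 3 it was -0.03 and without the pair high in Ctrb1 it was -0.05. With the replicate number as a block, the median was 0.06 and 0 genes were called. Same-numbered libraries, centred within their groups, correlated at 0.189, -0.1, -0.059 and -0.159 for replicates 1 to 4. Klebsiella replicate 1 correlated best with Lactobacillus replicate 1, and the other Klebsiella libraries correlated best with a library of another number. The labels do not say that equal numbers pair mice, and these correlations cannot decide it. With 4 mice in each group and a wide spread, the 95% interval on the log2(FPKM + 0.5) scale reached 2-fold for 7 of the 29 genes. It was widest for Cxcl10, from -1.15 to 2.52 on the log2 scale. The smallest difference that the test could detect was not computed.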

Other observations

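The order of levels among the 29 genes depended on the gene length behind each FPKM. The longest annotated transcript was up to 2.46 times the length the authors' values were divided by. Scaled to the longest transcript, Irf7 moved to a mean of 10.6, against 25.9 FPKM as deposited. Ddx58 moved to 5.70, against 13.7 FPKM as deposited, Oasl2 to 5.59, against 13.1 FPKM, and Trim30a to 3.65, against 8.93 FPKM. Bst2 was the highest gene both ways, at 39.5 and 52.0 FPKM, and Mx2 the lowest. Ratios between libraries for a given gene do not change with that length, since it is the same in all 8 libraries.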
